A study of Mus musculus with 9 samples.

Results

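The alpha-tubulin genes of the mouse were examined in 9 arrays of embryonic stem cells (mESCs), with the testis-type genes Tuba3a and Tuba3b set against the other members of the family. The members were the 7 genes Tuba3a, Tuba3b, Tuba1a, Tuba1b, Tuba1c, Tuba4a and Tuba8, and a member counted as measured where the deposited series table held a probe for it. By that rule 6 of the 7 genes were measured, by 7 probes, among 21713 genes in that table. Tuba1a had a probe on the array but none in the table, so its values are given without a test. Tuba3a and Tuba3b were chosen by their signal differences between these same cell lines, KO against WT and I53A against WT, so their differences are a description and carry no p-value, while the remaining members belong to the family by name.

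All cells were E14Tg2a mESCs, a male line of strain 129P2/OlaHsd, or were derived from them, and all were grown in serum with LIF. Wild type (WT) was the parental line. In Ring1B -/- cells (KO) exon 3 of Rnf2, the gene that encodes RING1B, was deleted on both alleles, and in Ring1B I53A/I53A cells (I53A) both alleles carried an alanine codon that abolishes the E3 ubiquitin ligase activity of the protein but lets it enter Polycomb repressive complex 1 (PRC1). Each group had 3 arrays of biological replicates, with no statement that these were separate cultures, and a p-value therefore reflects only how far the 3 samples of a group lay apart, a spread that may be technical. No second independently derived line of either mutant genotype is described for the arrays, so a difference between groups cannot be told apart from a difference between cell lines.

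Microtubules are polymers of alpha- and beta-tubulin, and the alpha-tubulin of each dimer comes from a small family of genes that encode nearly identical proteins. Tuba1b and Tuba1c are expressed in most dividing cells, and Tuba1a is the main alpha-tubulin of young neurons. Tuba4a is unusual in that its protein is made without the final tyrosine that most other alpha-tubulins carry. Tuba3a and Tuba3b are expressed mainly in testis. In mouse somatic cells the testis alpha-tubulin genes are known to be held silent by E2F6, a DNA-binding protein that is also a subunit of a variant PRC1 complex, the same family of complexes that contains RING1B.

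Arrays held between 45.4% and 57.4% of the table's probes well above background. Slide 2 held WT 3, KO 1 and I53A 3 and slide 1 the other 6 arrays, with 1 slide column for each group, so that column and group cannot be told apart. All 5 mESC markers with a probe (Pou5f1, Nanog, Sox2, Esrrb and Tdgf1) were well above background on at least 1 array of every group, and 1 of them, Sox2, was called lower in KO (-1.03, limma adjusted p 0.0425). With an unadjusted limma p under 0.05, 2 of the 5 were higher and 2 lower in KO, and 0 higher and 2 lower in I53A. Their differences from WT ran from -1.03 to 1.06 in KO and from -1.41 to 0.59 in I53A. Rnf2 had 1 probe, and its log2 signal was 8.32, 8.27 and 8.47 in WT, 7.35, 7.92 and 8.08 in KO and 8.69, 9.10 and 8.59 in I53A (KO against WT log2 difference -0.57, SE 0.26, limma adjusted p 0.288). Whether this probe falls in the deleted exon is not known here, and it therefore checks nothing about the labels. Genes of chromosome 11 stood higher as a whole in KO, with a median log2 difference of 0.22 over 1709 genes against -0.02 over all genes.

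Tuba3a lies on chromosome 6 (chr6:125278270-125286081, minus strand) and Tuba3b on the same chromosome (chr6:145615963-145621477, plus strand), both in GRCm38.p6. The probes are shown because they decide how far both genes can be told apart. Both Tuba3a probes were 60 bases long and shared 51 of them, so they are overlapping readings of the same transcript stretch and not independent. The Tuba3b probe could be laid without gaps over 47 bases of the brighter Tuba3a probe, where 40 bases were identical and the longest identical run was 28. Over the second Tuba3a probe it could be laid for 56 bases, where 42 were identical and 14 differed. A 30-base stretch of the second Tuba3a probe and of the Tuba3b probe, with the bases that differ in capitals, reads as follows. This stretch holds only 3 of the 14 differences, so the probes are less alike outside it.
Tuba3a: cgtccatttaTGTcttccccaccattggaa
Tuba3b: cgtccatttaCACcttccccaccattggaa
How much of each probe's signal came from the other gene's transcript was not tested.

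The promoters are shown because both genes moved together. These are the 250 bases before each RefSeq start (GRCm38.p6), read on the gene's own strand, for Tuba3a chr6:125286082-125286331 (minus strand) and for Tuba3b chr6:145615713-145615962 (plus strand). Capitals mark every TTCCCGCC, the core of E2F-type sites, and every CCAAT, the core of the CCAAT box, searched on both strands. No 2 matches overlapped.
Tuba3a: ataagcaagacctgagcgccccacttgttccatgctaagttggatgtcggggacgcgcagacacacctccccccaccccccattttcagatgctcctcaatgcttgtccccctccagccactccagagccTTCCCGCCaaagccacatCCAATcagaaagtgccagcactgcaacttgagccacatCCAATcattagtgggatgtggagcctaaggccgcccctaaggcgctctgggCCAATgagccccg
Tuba3b: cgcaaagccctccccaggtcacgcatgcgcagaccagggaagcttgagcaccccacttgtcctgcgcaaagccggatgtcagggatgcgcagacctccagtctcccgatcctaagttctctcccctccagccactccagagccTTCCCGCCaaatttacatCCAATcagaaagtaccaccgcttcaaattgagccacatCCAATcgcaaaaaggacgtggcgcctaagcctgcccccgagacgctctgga
Both promoters held 1 TTCCCGCC, which began 120 bases before the start of Tuba3a and 107 before that of Tuba3b. It lay inside an identical run of 33 bases, and 173 of the 250 bases (69.2%) matched in a gapped alignment of both promoters. Tuba3a held 3 CCAAT and Tuba3b 2. None of the other 5 alpha-tubulin promoters held TTCCCGCC, and each of them shared a run of at most 10 bases with either Tuba3 promoter. Of 32851 mouse promoters of this length 1.86% held TTCCCGCC on either strand, 33.8% held CCAAT and 0.645% held both. CACGTG, an E-box, was in neither Tuba3 promoter, in 6.02% of all promoters and, within the family, in that of Tuba8 alone.

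Tuba3a was lowest in WT, higher in I53A and higher still in KO. The log2 signal of its brighter probe was 5.87, 6.55 and 5.96 in WT, 9.98, 11.05 and 11.13 in KO, and 8.23, 8.81 and 9.40 in I53A, all 9 values well above background. No value of any group overlapped with another group, and the gap between the highest WT and the lowest KO array was 3.43 on the log2 scale. The KO cells thus exceeded WT by 4.59 (SE 0.39), a 24.2-fold difference in signal, and the I53A cells by 2.69 (SE 0.39), a 6.44-fold difference. KO exceeded I53A by 1.91 (SE 0.39).

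The overlapping second Tuba3a probe read 5.38, 6.27 and 5.07 in WT, 10.90, 10.68 and 10.51 in KO, and 7.65, 8.57 and 9.16 in I53A, with 1 of the WT arrays not well above background. It gave differences of 5.12 for KO and 2.88 for I53A against WT (SE 0.41 each) and of 2.24 for KO against I53A, in the same order and again without overlap. Within I53A the highest value of both probes came from I53A 3, the array on slide 2. The distance between the mutants differed between slides, and the brighter probe was 2.57 higher in KO than in I53A on slide 1 (2 arrays per group) and 0.58 higher on slide 2 (1 per group), while the second probe gave 2.48 and 1.74. Against WT the brighter probe differed in KO by 4.88 on slide 1 and 4.02 on slide 2, and in I53A by 2.31 and 3.44.

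Tuba3b followed the same order of groups from a lower signal. Its log2 signal was 2.83, 4.65 and 3.76 in WT, where no array lay well above background, 8.16, 7.79 and 8.04 in KO and 5.49, 5.31 and 5.41 in I53A, where 2 of 3 arrays did. All 3 KO arrays exceeded all 3 I53A arrays by at least 2.29, and all I53A arrays exceeded all WT arrays by at least 0.66. Since WT gives only an upper bound, Tuba3b was at least 16.4-fold higher in KO than in WT and at least 2.73-fold higher in I53A. For these folds each dim WT signal was raised to the lowest signal counted as well above background on its array. Such bounds hold for this processing alone, and another background correction, given below, gave smaller differences. The measured means differed by 4.25 and 1.66 on the log2 scale (SE 0.39), and KO exceeded I53A by 2.59. KO was higher than I53A by 2.51 on slide 1 and by 2.75 on slide 2.

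**Figure D1:**
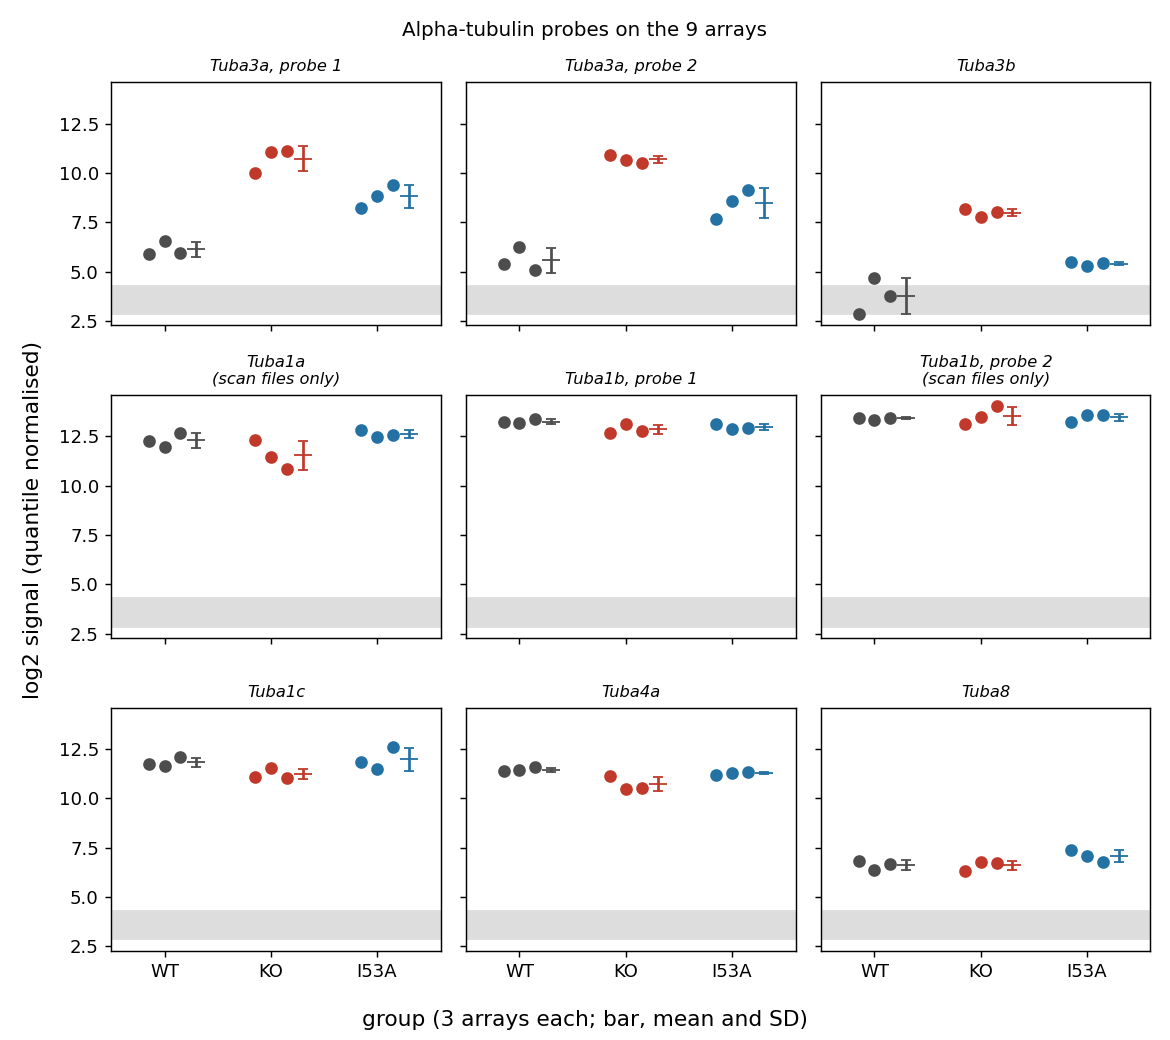
Log2 signal (quantile normalised) of every alpha-tubulin probe in the 3 arrays of each group, with mean and SD beside them; the grey band spans the lowest signals counted as well above background on the 9 arrays. Both Tuba3a probes and Tuba3b step from WT to I53A to KO without overlap, while no mean of another table probe lies more than 0.75 from its WT mean.

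The I53A cells thus showed part of the KO difference in both genes. On the log2 scale the I53A difference from WT was 58.5% of the KO difference for the brighter Tuba3a probe, 56.3% for the second and 39% for Tuba3b, a value that the dim WT signal of Tuba3b makes uncertain. With another background correction (normexp with an offset of 50, which lifts all dim signals) the Tuba3b differences from WT were 1.98 in KO and 0.37 in I53A, and those of Tuba3a 3.31 and 1.76.

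None of the 4 members tested was called different in KO against WT, in I53A against WT or in KO against I53A, where a call is a limma Benjamini-Hochberg adjusted p under 0.05 over all 30170 probes together with more than 2-fold, and where 4.09%, 0.401% and 1.46% of all genes were called. In a fit of WT and I53A alone that paired their same-numbered arrays, limma called 0 probes in I53A, in place of 99, with 1988 higher and 1407 lower at a p under 0.05 before adjustment, so that every share called in I53A depends on this choice, and with the number as a block over all 9 arrays it called 25. Without adjustment 1, 0 and 2 of the 4 had a limma p under 0.05. In KO all 4 differences from WT were below 0, with a median of -0.49 against -0.02 over all genes. The groups did not overlap for 3, 2 and 2 of the 4 genes, where 12.1% of all genes lay wholly higher and 13.5% wholly lower in KO than in WT, 8.7% and 9.66% in I53A than in WT, and 7.82% and 8.1% in KO than in I53A.

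Tuba1b, one of the alpha-tubulins of dividing cells, had a log2 signal of 13.22, 13.16 and 13.37 in WT, 12.69, 13.12 and 12.75 in KO and 13.13, 12.86 and 12.94 in I53A. All KO and I53A arrays fell just under the lowest WT array, by 0.04 and 0.02, and the differences of -0.40 (95% interval -0.87 to 0.08, limma adjusted p 0.388) and -0.27 (-0.75 to 0.21, adjusted p 0.755) did not pass the test. A second Tuba1b probe, on the arrays but not in the table, pointed the other way by 0.12 in KO, with 13.46, 13.35 and 13.45 in WT, 13.10, 13.47 and 14.04 in KO and 13.24, 13.57 and 13.59 in I53A. The 2 probes of this gene therefore disagreed in sign in KO, where the second probe had an SD of 0.47.

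Tuba1c, its close paralog, read 11.76, 11.63 and 12.08 in WT, 11.10, 11.53 and 11.06 in KO and 11.86, 11.47 and 12.59 in I53A. KO lay under WT by -0.59 (95% interval -1.27 to 0.09, limma adjusted p 0.361) and I53A was 0.15 from it (-0.53 to 0.83, adjusted p 0.927). The KO arrays did not overlap with WT, while the I53A arrays spread over more than the whole WT range.

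Tuba4a had the largest KO difference among the 4 tested members. It read 11.36, 11.44 and 11.57 in WT, 11.11, 10.48 and 10.54 in KO and 11.20, 11.29 and 11.33 in I53A. KO was lower than WT on every array (difference -0.75, 95% interval -1.26 to -0.24, limma p 0.00858, adjusted p 0.112) and lower than I53A on every array (-0.57, adjusted p 0.373), and neither passed the test. Over the alternative settings the KO difference stayed under 2-fold, from -0.95 to -0.47, with adjusted p from 0.0425 to 0.427. I53A differed from WT by -0.18 (-0.69 to 0.33, adjusted p 0.866).

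Tuba8 was dim but well above background on all arrays, at 6.82, 6.35 and 6.66 in WT, 6.34, 6.76 and 6.73 in KO and 7.36, 7.05 and 6.78 in I53A. The KO mean differed from the WT mean by -0.0033 (95% interval -0.55 to 0.54, limma adjusted p 0.998), and the I53A mean was 0.45 higher (-0.10 to 1.00, adjusted p 0.649) with overlapping arrays. Tuba8 shares chromosome 6 with both Tuba3 genes.

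Tuba1a, measured outside the table, read 12.28, 11.94 and 12.69 in WT, 12.32, 11.47 and 10.83 in KO and 12.82, 12.46 and 12.60 in I53A. The KO arrays spread widely (SD 0.75) and overlapped with WT around a difference of -0.76, and I53A overlapped with WT around 0.32. All 3 KO arrays lay under all I53A arrays, by 0.13 at the closest.

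**Figure D2:**
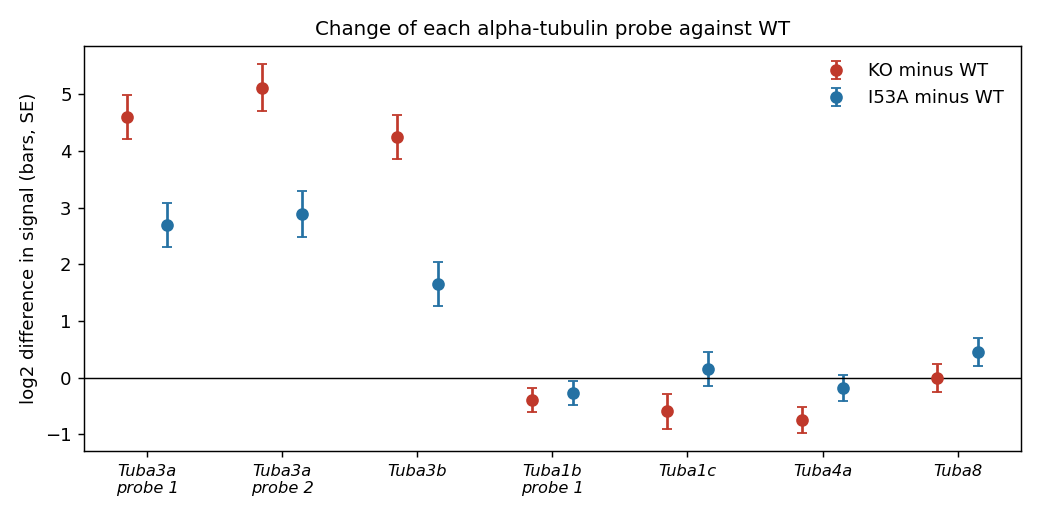
Log2 difference in signal from WT for KO (red) and I53A (blue) of the 7 alpha-tubulin probes in the series table, with SE. Tuba3a and Tuba3b stand between 4.25 and 5.12 in KO and between 1.66 and 2.88 in I53A, and the other 4 genes between -0.75 and 0.45.

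Over the 9 arrays the second Tuba3a probe followed the brighter one with a Pearson r of 0.98 and Tuba3b with 0.93, where the points share the group structure and, for the first, the probe sequence. Tuba4a ran opposite (r = -0.85), as did 1 of the 2 Tuba1b probes (-0.74, against 0.34 for the other), Tuba1a (-0.56) and Tuba1c (-0.42), and Tuba8 showed no relation (0.02). Such values describe 3 groups of 3 arrays and carry no test. Among 10408 genes outside the family that were well above background on all KO arrays, the 10 whose probe was most like the brighter Tuba3a probe were Sohlh2, Lpl, Tnip2, 0610040J01Rik, Msx1, Kcnk6, Tlx2, Lgalsl, Tent5c and Bcas1, with r from 0.98 to 0.99. Candidates had to be bright in KO, where Tuba3a was highest, which favours genes high in KO, and 3 of the 10 (0610040J01Rik, Kcnk6 and Tlx2) were well above background on 0 WT arrays. Of these 10, Sohlh2, a transcription factor of early germ cells, was first, with 6.05, 6.58 and 6.26 in WT, 8.80, 9.09 and 9.40 in KO and 7.32, 7.80 and 8.11 in I53A, the same order of all 9 arrays as Tuba3a (Spearman rho 1). Lpl, which encodes lipoprotein lipase, differed from WT by 1.63 in KO and 0.95 in I53A, and Bcas1 by 2.16 and 1.25. Tuba3b itself would have ranked 130 on this scale.

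The partners of alpha-tubulin and a list of testis-type paralogs were examined to see whether they moved with Tuba3a and Tuba3b. Of 83 measured genes in 5 lists (of 86 listed), limma called 7 higher and 0 lower in KO, or 8.43% against 4.09% of all genes. In I53A it called 0 of 83, against 0.401% of all genes, though 9 were higher (10.8%, against 5.83% of all genes) and 4 lower (4.82%, against 3.94%) with an unadjusted p under 0.05, and in KO against I53A 2 higher and 1 lower, or 3.61% against 1.46%. Of the 7 KO calls 5 fell on the 18 testis-type paralogs. In the 4 lists of tubulins, folding factors and modifying enzymes, 2 of 65 genes were called in KO, or 3.08% against 4.09% of all genes, and limma called 0 of 65 in I53A and 0 in KO against I53A (4 higher and 4 lower, and 4 higher and 2 lower, before adjustment).

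Among the beta-tubulins 0 of 7 measured genes were called in any comparison by limma, with 0 at an unadjusted p under 0.05 in KO, 1 higher and 2 lower in I53A, and 2 higher and 1 lower in KO against I53A. Their median KO difference was -0.14. Tubb5, the main beta-tubulin of dividing cells, read 13.05, 13.21 and 12.59 in WT, 12.96, 13.41 and 13.52 in KO and 13.08, 13.13 and 12.69 in I53A, with overlapping groups (KO difference 0.34, 95% interval -0.23 to 0.92, limma adjusted p 0.553). In KO Tubb4a differed from WT by -0.37, Tubb2b by -0.33 and Tubb6 by -0.26, all with adjusted p of 0.506 or more. Tubb6 read 10.29, 10.39 and 10.24 in I53A against 9.73, 9.83 and 9.70 in WT (0.56, adjusted p 0.455). Tubb2b lay lower in I53A than in WT on all arrays (-0.87, limma p 0.00328, adjusted p 0.203), short of the threshold. Tubb2a, named after its values had been seen, read 6.89, 7.91 and 7.05 in WT, 6.52, 7.37 and 7.82 in KO and 5.74, 6.03 and 5.82 in I53A. Its I53A arrays lay under all arrays of both other groups (-1.42 against WT, SE 0.37, limma p 0.00287, adjusted p 0.191), and KO was 1.37 above I53A (adjusted p 0.129) and -0.05 from WT.

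Of the 13 other tubulins and gamma-tubulin ring proteins, which nucleate microtubules at the centrosome, 1 was called in KO (7.69%, against 2.92% of all genes called higher). Tubg1, the gamma-tubulin of most cells, rose from 10.30, 10.49 and 9.95 in WT to 11.09, 11.40 and 11.64 in KO (log2 difference 1.13, SE 0.26, limma adjusted p 0.0356) and read 10.21, 10.71 and 10.20 in I53A (0.13, adjusted p 0.926). Tubgcp3, a ring subunit, was lower than WT by about the same amount in KO (-1.02, adjusted p 0.103) and I53A (-0.93, adjusted p 0.354) and passed in neither, and Mzt1, a small ring protein, gave -0.76 and -0.49. Tubgcp2 differed from WT by -0.11 in KO and 0.16 in I53A, and Mzt2 by -0.15 and -0.31.

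Of 20 tubulin folding factors, the chaperonin CCT, prefoldin and the cofactors that build the dimer, 1 was called in KO (5%, against 2.92%). Tbcd, the cofactor that handles beta-tubulin, rose from 7.87, 8.03 and 7.74 in WT to 9.47, 8.59 and 8.99 in KO (1.14, SE 0.28, limma adjusted p 0.0489) and lay between 7.45 and 8.01 in I53A (-0.06, adjusted p 0.972). Arl2, its small GTPase partner, was lower in KO at 10.79, 10.87 and 10.61 against 11.47, 11.63 and 11.66 in WT, a difference of -0.83 that passed the adjusted p (0.0458) but not 2-fold. Cct7, Pfdn6, Cct2 and Cct8, the brightest others, lay between -0.34 and 0.21 from WT in KO and between -0.27 and 0.12 in I53A with adjusted p of 0.520 or more. Over the list the median KO difference was -0.22, with 1 gene higher and 2 lower at an unadjusted limma p under 0.05. KO lay wholly under WT for 6 of the 20 (30%, against 13.5% of all genes) and wholly above it for 2 (10%, against 12.1%).

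None of 25 enzymes that modify alpha-tubulin was called by limma in any comparison, with medians of -0.12 in KO and -0.11 in I53A. With an unadjusted p under 0.05, 2 were higher and 2 lower in KO, 3 higher and 1 lower in I53A, and 0 higher and 1 lower in KO against I53A. Atat1, the acetyltransferase of the microtubule lumen, gave -0.54 in KO, the deacetylases Hdac6 and Sirt2 -0.22 and -0.26, and Ttl, which restores the terminal tyrosine, 0.42, each with an adjusted p of 0.420 or more.

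**Figure D3:**
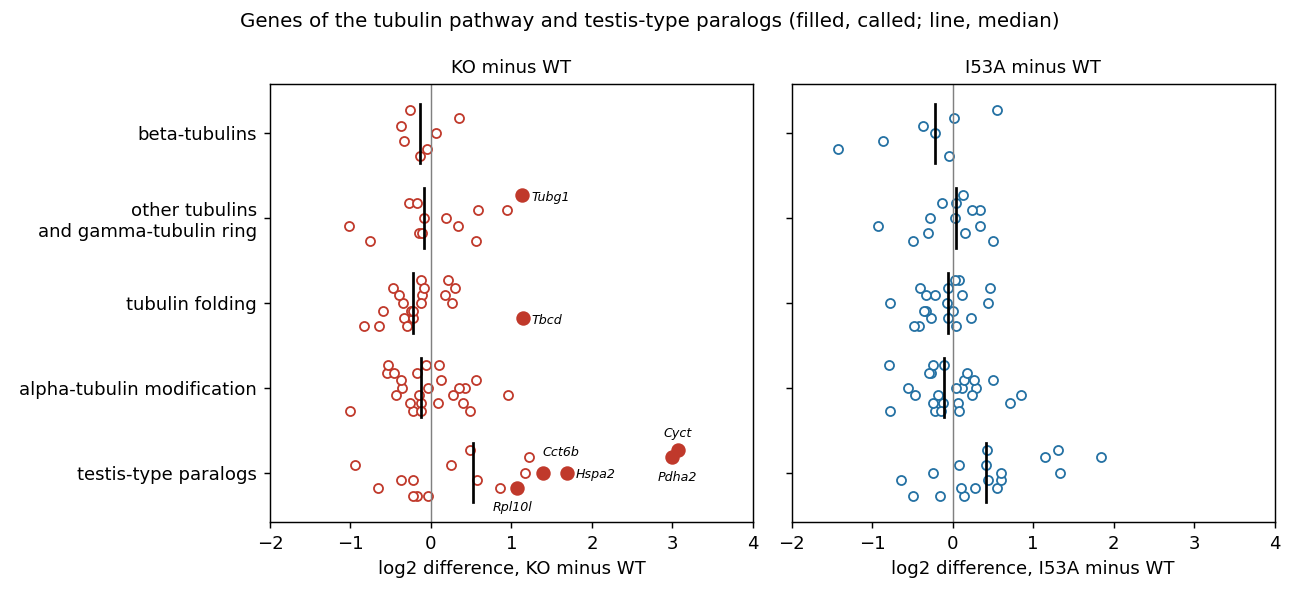
Log2 difference from WT in KO (left) and I53A (right) for 83 genes in 5 lists, each point 1 gene by its brightest probe, filled where limma called it and with a line at each list's median. Filled points appear in KO alone, 5 of 7 of them among the testis-type paralogs, whose median is 0.53 in KO and 0.42 in I53A.

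Testis-type paralogs, genes that like Tuba3a and Tuba3b encode a germline version of a widely expressed protein, were the list in which most calls fell. Of 18 measured, 5 rose in KO (27.8%, against 2.92% of all genes called higher) and 0 fell (against 1.17%), with 8 higher and 1 lower before adjustment. In I53A limma called 0 (against 0.29% of all genes higher and 0.111% lower), with 5 higher and 0 lower before adjustment, and in KO against I53A 2 were higher and 1 lower (against 1.06% and 0.405%). Groups did not overlap, with KO above WT, for 10 of the 18 (55.6%, against 12.1% of all genes) and with I53A above WT for 6 (33.3%, against 8.7%). The median difference was 0.53 in KO and 0.42 in I53A, against -0.02 and -0.01 over all genes. The list was chosen with earlier results of these data known, so these shares are a description.

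Cyct, the testis cytochrome c, and Pdha2, the testis form of the pyruvate dehydrogenase E1 alpha subunit, stood out within it. Cyct read 4.67, 4.43 and 4.20 in WT, not well above background on any array, 7.05, 7.81 and 7.65 in KO and 5.52, 5.38 and 6.31 in I53A. It was at least 8.39-fold higher in KO than in WT (limma adjusted p 0.000499) and higher in KO than in I53A by 1.76 (adjusted p 0.0235), while I53A against WT (1.30, adjusted p 0.155) did not pass. As with Tuba3a and Tuba3b, all 3 groups were apart, in the order WT, I53A, KO.

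Pdha2 read 4.39, 4.69 and 3.20 in WT, again not well above background, 6.92, 7.29 and 7.07 in KO and 5.48, 6.03 and 6.32 in I53A. It was at least 6.62-fold higher in KO than in WT (limma adjusted p 0.00183). The I53A difference of 1.85 (adjusted p 0.0948) and the KO to I53A difference of 1.15 (adjusted p 0.239) did not pass, although no group overlapped. The KO calls of Cyct and Pdha2 were kept under 9 other settings and with each of the 9 arrays left out, although normexp lowered their KO differences to 1.54 and 1.39.

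Hspa2, a testis-enriched Hsp70 chaperone, read 2.63, 4.16 and 3.16 in WT, 4.73, 5.21 and 5.09 in KO and 4.62, 4.49 and 4.86 in I53A, and lay well above background on 0, 2 and 1 of 3 arrays. It was at least 2.32-fold higher in KO (limma adjusted p 0.0267) and 0.31 higher with normexp. I53A overlapped with KO (I53A against WT 1.34, adjusted p 0.210). Rpl10l, a germline copy of a ribosomal protein gene, read 10.52, 10.60 and 10.53 in WT, 11.42, 11.70 and 11.76 in KO and 11.22, 11.14 and 10.93 in I53A, a rise of 1.07 in KO (adjusted p 0.0177) and a difference of 0.55 in I53A (adjusted p 0.439). Whether the Rpl10l probe also takes up transcripts of its parent gene was not tested.

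Cct6b and Cox6b2 differed between the mutants in another way. Cct6b, the testis version of a subunit of the tubulin chaperonin, read 5.77, 5.32 and 5.14 in WT, 6.57, 7.06 and 6.76 in KO and 5.04, 5.49 and 4.95 in I53A. It rose in KO (1.39 against WT, limma adjusted p 0.0155, and 1.64 against I53A, adjusted p 0.0147), and I53A overlapped with WT (-0.25, adjusted p 0.823). Cox6b2, a testis subunit of cytochrome c oxidase, was bright in all groups, at 11.14, 11.04 and 10.41 in WT, 9.75, 10.07 and 9.92 in KO and 11.26, 11.25 and 11.30 in I53A. It was lower in KO than in I53A (-1.36, adjusted p 0.0264), and its difference from WT (-0.95, adjusted p 0.0600) did not pass. Of the brightest others, Slc25a31 (a germline ADP/ATP carrier) gave 1.16 in KO (adjusted p 0.0769), Rpl39l 0.57, Ldhc 0.25 and Gk2 -0.66, none of them called.

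**Figure D4:**
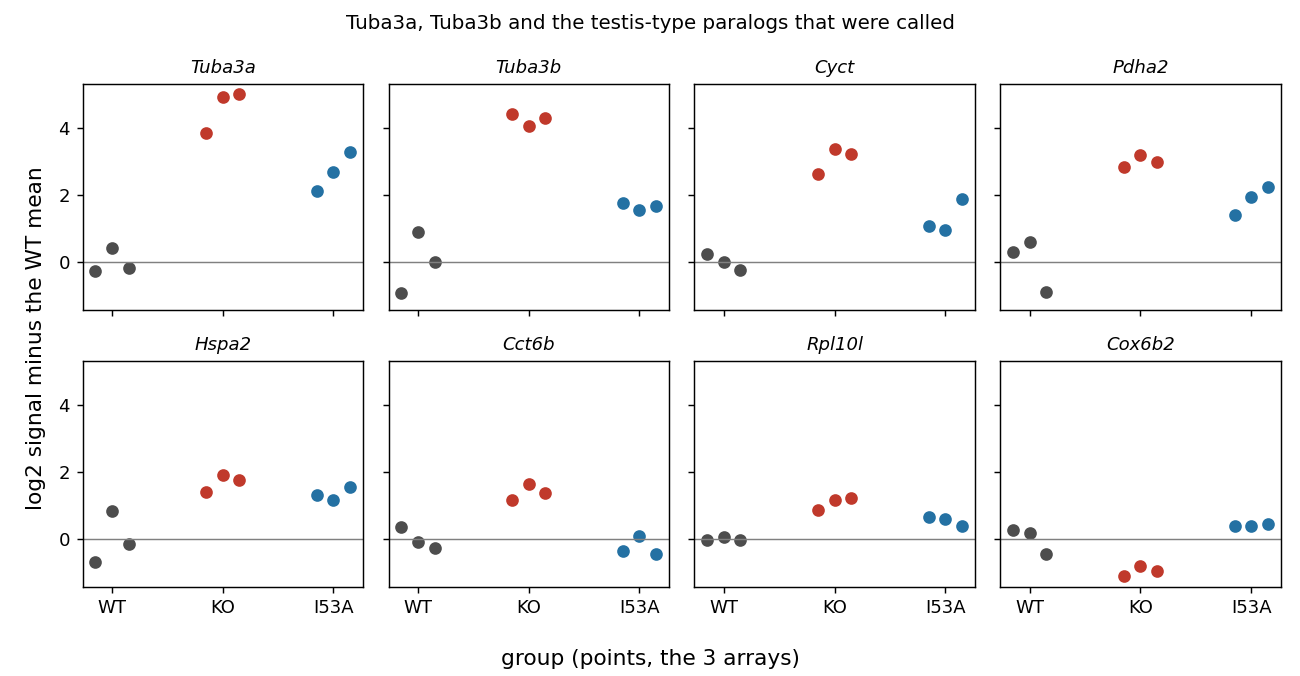
Log2 signal minus the WT mean of Tuba3a, Tuba3b and the 6 testis-type paralogs called in any comparison, 3 arrays per group. Tuba3a, Tuba3b, Cyct, Pdha2 and Rpl10l show I53A wholly between WT and KO, and the I53A arrays of Hspa2 overlap with KO. Cct6b is raised in KO and not in I53A, and Cox6b2 lies lower in KO.

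Several of these calls were lost when a single array was left out. The KO call of Tubg1 was lost without WT 1, WT 2, WT 3, KO 2 or KO 3 (limma adjusted p 0.0629 to 0.134), Tbcd without any of 7 arrays, all but KO 2 and I53A 1 (0.0643 to 0.156), Hspa2 without WT 1, WT 3, KO 2 or KO 3 (0.085 to 0.0973), Rpl10l without WT 1, WT 2, WT 3, KO 2 or KO 3 (0.0565 to 0.0773) and Cct6b without WT 2, WT 3 or KO 2 (0.0592 to 0.0716). In KO against I53A, the call of Cox6b2 was lost when any of the 3 KO or 3 I53A arrays was left out (0.0693 to 0.0936), that of Cct6b without KO 2, KO 3, I53A 1 or I53A 3 (0.0529 to 0.0654) and that of Cyct without KO 2, KO 3, I53A 1 or I53A 2 (0.0879 to 0.105). Normexp and slide 1 alone also ended the KO calls of Tubg1, Tbcd, Cct6b, Hspa2 and Rpl10l and the calls of Cox6b2 and Cct6b in KO against I53A, and 75th percentile scaling that of Cox6b2. The call of Tbcd was also lost with slide as a block and with the mean over its probes, which lowered its difference from WT to 0.48. A fit of only the 2 groups compared ended the KO calls of Tubg1, Tbcd and Hspa2 and that of Cyct in KO against I53A. Tubg1, Tbcd and Cct6b lie on chromosome 11, where 7.49% of genes were called higher in KO. Without chromosome 11 the lists held 76 genes, 4 of them called higher in KO, against 2.53% of 20004 genes.

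Markers of other cell types were read beside Tuba3a and Tuba3b. In bulk samples fewer cells of a type and less RNA per cell cannot be told apart. Of 6 spermatocyte markers limma called Dazl (at least 4.30-fold, adjusted p 0.00123) and Ddx4 (at least 6.2-fold, adjusted p 0.00285) higher in KO and Sycp3 lower (-1.57, adjusted p 0.00365), the summed log2 signal of the list was 8.44 to 8.49 in WT, 8.71 to 9.46 in KO and 8.24 to 8.43 in I53A, and Sycp1 was not well above background on any array. Of 6 spermatid markers 0 were called in KO by limma, 1 was lower before adjustment, 3 of them, Tnp1, Tnp2 and Acrv1, were above background on no array, and the summed signal was 7.67 to 7.99 in WT, 7.29 to 7.53 in KO and 7.45 to 7.79 in I53A. Of 6 primitive endoderm markers 4 rose in KO (Gata4, Gata6, Sox17 and Col4a1) and 0 in I53A (3 higher before adjustment), with sums of 8.14 to 8.87 in WT, 9.73 to 10.63 in KO and 8.29 to 8.51 in I53A. In I53A the spermatocyte sum lay under that of WT and the endoderm sum within its range. Each sum adds unlogged signals, so its brightest gene weighs most. Those genes were lower in I53A, with means of 7.67 in WT and 6.69 in I53A for Sycp3 and 8.03 and 7.31 for Lama1. The median I53A difference from WT was 0.19 over the spermatocyte markers and 0.55 over the endoderm markers. Ddx4 was 2.01 above WT in I53A (limma adjusted p 0.0623). Of 6 fibroblast markers 1 was called higher (Thy1) and 1 lower (Acta2) in KO, with 1 higher and 4 lower before adjustment and a median of -0.67. Their sums were 9.31 to 9.56 in WT, 9.19 to 9.22 in KO and 9.32 to 9.65 in I53A. In KO 0 of 6 neuron markers were called, 3 being lower before adjustment, though all 6 lay below WT (median -0.62, highest -0.21). The neuron sums were 9.87 to 10.04 in WT, 9.28 to 9.34 in KO and 9.41 to 9.70 in I53A. The part of any of these cells in the Tuba3a and Tuba3b signals was not tested.

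The genes around Tuba3a and Tuba3b were examined to see whether whole neighbourhoods moved. Within 500 kb of the start of Tuba3a lay 32 other measured genes, of which limma called 1 in KO (3.12%, against 4.09% of all genes) and 0 in I53A (against 0.401%), with 2 higher and 4 lower, and 2 higher and 0 lower, before adjustment. The medians were -0.06 and -0.05. The called gene was Tapbpl, which encodes the MHC class I editor TAPBPR, with its start 54.2 kb away. Tapbpl read 6.96, 7.10 and 7.10 in WT, 8.19, 8.36 and 8.40 in KO and 7.94, 7.66 and 8.0 in I53A (KO difference 1.27, SE 0.205, limma adjusted p 0.00707, and I53A difference 0.82, adjusted p 0.180), so its groups were apart in the same order as those of Tuba3a. Its call was lost with normexp and on slide 1 alone.

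Within 500 kb of the start of Tuba3b lay 12 other measured genes and 0 were called by limma in any comparison (1 higher and 1 lower in KO, 1 higher in I53A, and 2 higher and 1 lower in KO against I53A, before adjustment), with medians of 0.06 in KO and 0.08 in I53A. The nearest, Lmntd1, starts 1.5 kb away and differed by -0.20 in KO (limma adjusted p 0.840). In I53A the highest of the 12 was Gm15706, not well above background in WT and at least 2.82-fold higher in I53A, with an SE of 0.75 on the log2 scale (limma adjusted p 0.547). Lmntd1 and Gm15706 were named after their values had been seen.

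**Figure D5:**
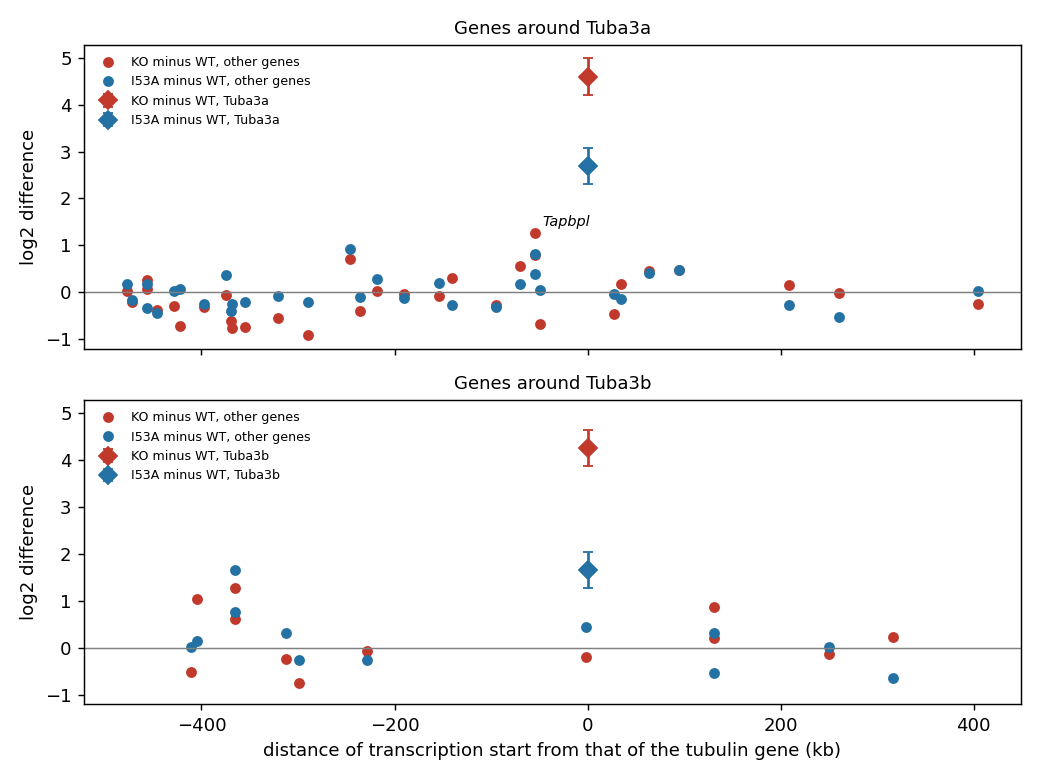
Log2 difference from WT in KO (red) and I53A (blue) of genes by the distance of their start from that of Tuba3a (top) or Tuba3b (bottom), in kb; diamonds with SE are the tubulin genes themselves. Both Tuba3 genes, which were chosen for their differences, stand above all their neighbours in KO. In I53A Gm15706 (1.66) stands level with Tuba3b (1.66). Tapbpl at 1.27 is the 1 neighbour called.

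Genes that share the promoter letters of Tuba3a and Tuba3b were counted as a description. Of 464 other measured genes with TTCCCGCC in the 250 bases, 21 were called higher in KO (4.53%, against 3.02% of 15337 measured genes with a promoter in the reference table) and 1 in I53A (0.216%, against 0.3%). Called lower were 3 in KO (0.647%, against 1.18%) and 1 in I53A (0.216%, against 0.124%). With CCAAT as well 11 of 170 were called higher in KO (6.47%) and 0 in I53A, and 1 was called lower in KO and 1 in I53A (0.588% each). The median difference of these genes was 0.03 in KO, against -0.02 over all genes with a promoter. Those with both included Ddx4, the germ cell RNA helicase, at 2.68, and Lgalsl, at 1.61, which was also among the 10 genes most like Tuba3a, and both were picked after their values had been seen. Lgalsl lies on chromosome 11, where 7.49% of genes were called higher in KO. A match in letters is not a site, and its part in the differences was not tested.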

How the data were processed

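Polyadenylated RNA of 9 mESC samples was labelled with Cy3 and hybridised by the authors to 1 single-colour SurePrint G3 mouse array per sample, and spots were read with Agilent Feature Extraction 11.5.1.1. The deposited scan files hold, per spot, background-subtracted processed intensity in arbitrary units with outlier and background flags, and the deposited series table holds quantile normalised log2 values of 30170 probes that map to 1 Ensembl gene, together with 13 columns of the authors' own means, fold changes, p-values and calls, which were not used. Its columns name a group but no replicate.

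Here the processed intensities were used. Control and outlier spots were left out, log2 values of repeated probes were averaged, the 9 arrays were quantile normalised over 55681 probes, and the 30170 table probes were tested with limma 3.58.1 in R 4.3.3 (1 mean per group, 6 residual degrees of freedom, two-sided, Benjamini-Hochberg over all probes). The number of arrays limits the precision. Probes took their names from RefSeq accessions or the Ensembl gene in the table, 26929 with 1 symbol and 3241 without, and each gene was read by its brightest probe. Where a group had no array well above background, folds are "at least" values: the bright mean against, per array, the higher of the dim signal and the lowest signal well above background. Some signals above that lowest one were not counted as well above background, so an "at least" fold holds for this processing alone. Sequences and positions are RefSeq's (GRCm38.p6), and all 7 members matched.

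The members and lists were chosen with earlier results of these data known. Named were the 7 members, list genes called in any comparison and up to 4 further of each list by mean signal, called genes within 500 kb, and the 10 genes most correlated with Tuba3a. Alternatives were normexp background correction, 75th percentile scaling, the deposited values, a filter on dim probes, slide as a block or slide 1 alone, the replicate number as a block, the mean over probes, 2 groups per fit, and each array left out. Normexp used median spot signals, because the mean signals named in the plan were not among the columns used here. Over probes well above background on all 9 arrays, deviations from the group means of same-numbered WT and I53A arrays, which shared a slide, correlated by 0.38, 0.11 and 0.23, so the numbers were taken to pair these groups. Same-numbered WT and I53A arrays also shared a slide row, so a shared replicate and a shared place on the slide cannot be told apart. Pairs with KO gave -0.39 to 0.11 and were not taken as paired. The model was tested on simulated data.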

Additional observations from a re-analysis of the deposited data

Results flagged for a closer look

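The KO and I53A differences from WT were unequal, by the limma test of KO against I53A, for 3 of the testis-type paralogs. Cyct was higher in KO by 1.76 on the log2 scale (adjusted p 0.0235, higher in 3 of 3 arrays). Cct6b was higher in KO by 1.64 (adjusted p 0.0147, higher in 3 of 3 arrays), the only one of the 3 for which the I53A mean lay under that of WT. Cox6b2 was lower in KO, at -1.36 (adjusted p 0.0264, lower in 3 of 3 arrays). Tuba3a and Tuba3b also differed between the mutants but were chosen for their differences, so no test is given. Each of these 3 calls was lost when any of several single arrays was left out.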

How the results depend on the processing

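None of the 4 tested other alpha-tubulins was called in any comparison under 9 other settings or with any of the 9 arrays left out. Among the single genes followed, no called difference and no Tuba3a or Tuba3b difference changed sign. Small uncalled differences did change sign. Tuba1b in KO against I53A ran from -0.13 to 0.08 over the other settings, and Tuba1c in I53A against WT from -0.16 to 0.40 with an array left out. With 3 arrays per group and 45.4% to 57.4% of probes well above background, small differences, and levels as low as that of Tuba3b in WT, cannot be resolved.

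With normexp, which lifts dim signals by construction, Tuba3a differed from WT by 3.31 (KO) and 1.76 (I53A), and Tuba3b by 1.98 and 0.37, with KO above I53A by 1.61. On slide 1 alone Tuba3a was 2.57 higher in KO than in I53A. List calls numbered 7 in KO against WT, but 3 with normexp (1 of them lower), 2 on slide 1 and 4 with only the 2 groups compared. There were 0 in I53A, but 2 (Cyct and Pdha2) with the filter on dim probes, and 3 in KO against I53A, but 1 with normexp, 1 on slide 1 and 6 with the filter. The 1 neighbour call became 0 with normexp and on slide 1. Calls over all probes numbered 1159 in KO, but 326 with normexp and 332 on slide 1 (87.3% higher, against 71.1%). In I53A the 99 (71.7% higher) became 46 with normexp (54.3% higher), 44 with 75th percentile scaling, 266 with the filter, 2 on slide 1 (50% higher) and 45 with only 2 groups. The 400 in KO against I53A (72.2% higher) became 132 with normexp, 63 on slide 1 (96.8% higher) and 213 with only 2 groups (84.5% higher). Slide 1 alone holds fewer arrays, and otherwise the cause was not tested.

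With 1 array left out the calls over all probes ran from 610 to about 1.1e+03 in KO (759 or fewer without a WT array, KO 2 or KO 3), from 22 to 87 in I53A (61 or fewer without a WT array, an I53A array or KO 2) and from 181 to 326 in KO against I53A (193 or fewer without KO 2, KO 3, I53A 1 or I53A 2). The list calls ran from 3 to 7 in KO (3 without WT 3, KO 2 or KO 3, and 4 without WT 1) and from 0 to 3 in KO against I53A (0 without KO 2, KO 3 or I53A 1, and 1 without I53A 2 or I53A 3), and the neighbour calls from 1 to 2 (2 without KO 1). Tuba3a against WT ran from 4.39 to 4.96 in KO and from 2.39 to 2.98 in I53A, and Tuba3b from 3.79 to 4.70 and from 1.20 to 2.11.

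The replicate numbers were taken to pair WT with I53A but not KO with either group. With the replicate block limma called 797 probes in KO, 25 in I53A and 194 in KO against I53A (84% higher), and 4, 0 and 1 list genes. The KO calls of Tubg1, Tbcd and Rpl10l and the KO against I53A calls of Cox6b2 and Cyct were among those lost. In WT and I53A alone with the replicate block, chosen after seeing the data, limma called 0 probes (1988 higher and 1407 lower before adjustment), 0 list genes (10 higher and 5 lower) and 0 of the 4 other alpha-tubulins (0 before adjustment). The mean over probes does not apply to counts over all probes, and Hspa2 had no value under the filter.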
